A study of Mus musculus with 18 samples.

Results

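The globin genes encode the protein chains of haemoglobin, and 7 mouse globins were described here across 18 libraries of reprogramming blood cells and fibroblasts. They were taken by symbol from a table of 36655 gene symbols: the embryonic beta-like Hbb-y and Hbb-bh1, the embryonic alpha-like Hba-x, the adult alpha globins Hba-a1 and Hba-a2, and the adult beta globins Hbb-b1 and Hbb-b2. All 7 of 7 were present. The RNA came from C57BL/6 all-iPS mice, whose whole body derives from pluripotent cells, and every library, controls included, carries the same doxycycline-inducible Oct4, Sox2, Klf4 and c-Myc. Blood stem cells with long-term (LT-HSC) or short-term (ST-HSC) activity and MP, the myeloid progenitors, were each sampled uncultured (0), after 2 or 4 days of culture without doxycycline (2N, 4N) and after 2 or 4 days with it (2D, 4D). Fibroblasts were sampled at 0, 2D and 4D. For all 6 N libraries the treatment label says yes to doxycycline, against their titles and the stated design, and groups here follow the titles. No age, sorting scheme or transgene promoter was given in the labels.

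Each condition was 1 library, so there were no replicates. Tests take cell types and days as the replication, and their p-values measure the spread between those libraries. For blood, 25 cells picked by hand gave each library, by oligo-dT priming and PCR; fibroblast libraries came from extracted RNA by another method. Values are FPKM (fragments scaled to transcript length and to library size). Levels compared between genes rest on that scaling, which was not checked here for the amplified libraries. Depth is unknown, and an FPKM of 0 can be a failed estimate, so such genes are described as listed at 0. In these pooled cells, fewer cells expressing a gene and less RNA per cell cannot be told apart.

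Haemoglobin genes are used in turn during development. The primitive red cells of the yolk sac use the embryonic globins Hbb-y, Hbb-bh1 and Hba-x, and definitive red cells from fetal liver and bone marrow use Hba-a1, Hba-a2, Hbb-b1 and Hbb-b2. The beta-like genes lie in 1 cluster under a shared upstream locus control region, and the alpha-like genes lie in another cluster. Gata1 and Klf1 drive globin transcription in red cell precursors, and Bcl11a and Sox6 keep embryonic globins silent in adult ones.

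The start of each coding sequence is shown because it shows how far the beta-like globins differ in the letters that reads are assigned by. Each line gives 60 bases from the ATG, from the GENCODE M21 transcripts (GRCm38). Capitals mark bases that differ from Hbb-y.
Hbb-y: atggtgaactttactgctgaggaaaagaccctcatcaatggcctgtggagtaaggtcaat
Hbb-bh1: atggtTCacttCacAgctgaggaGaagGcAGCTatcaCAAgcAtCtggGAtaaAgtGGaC
Hbb-b1 and Hbb-b2: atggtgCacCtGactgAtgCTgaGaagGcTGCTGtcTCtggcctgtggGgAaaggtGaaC
Over these 60 bases Hbb-bh1 differed from Hbb-y at 21 positions. Hbb-b1 and Hbb-b2 were identical to each other and differed from Hbb-y at 19. In the next lines, which hold the alpha-like genes, capitals mark differences from Hba-x.
Hba-x: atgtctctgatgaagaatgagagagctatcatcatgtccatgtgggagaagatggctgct
Hba-a1 and Hba-a2: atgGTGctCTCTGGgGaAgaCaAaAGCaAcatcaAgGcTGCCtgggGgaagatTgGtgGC
Hba-a1 and Hba-a2 were identical here and differed from Hba-x at 28 positions. Over whole transcripts, none of the 584 windows of 50 bases in Hbb-y occurred in another gene's transcript, and the same held for Hbb-bh1 (0 of 564) and Hba-x (0 of 752). The adult pairs shared most of theirs: 439 of 650 windows of Hba-a1 were also in Hba-a2, and 381 of 654 windows of Hbb-b2 were also in Hbb-b1. Values of Hbb-b1, Hbb-b2, Hba-a1 and Hba-a2 are therefore uncertain, since the authors' handling of shared reads is not given in the sources used here. Hbb-b1 and Hbb-b2 were matched by identifier to the genes now called Hbb-bs and Hbb-bt.

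Hbb-y (ENSMUSG00000052187) was the globin that rose with doxycycline, and it rose in all 3 blood cell types. In LT-HSC it was listed at 0 in the uncultured and 2N libraries and stood at 12.5 FPKM in 4N, against 2707 FPKM in 2D and 63.1 FPKM in 4D. In ST-HSC it was listed at 0 uncultured, 17.6 FPKM in 2N and 1.52 FPKM in 4N, against 6887 FPKM in 2D and 3032 FPKM in 4D. In MP it was listed at 0 uncultured, 2.01 FPKM in 2N and 2.41 FPKM in 4N, against 2556 FPKM in 2D and 836 FPKM in 4D. Over the blood libraries Hbb-y spanned 0 to 17.6 FPKM in N and 63.1 to 6887 FPKM in D. At its highest, in ST-HSC 2D, Hbb-y ranked 6 among all genes of the library and held 0.940% of the summed FPKM. It ranked 20 in LT-HSC 2D, 13 in MP 2D, 12 in ST-HSC 4D and 109 in MP 4D. LT-HSC 4D stood apart, with Hbb-y at rank 2231 and 0.00861% of the summed FPKM.

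**Figure D1:**
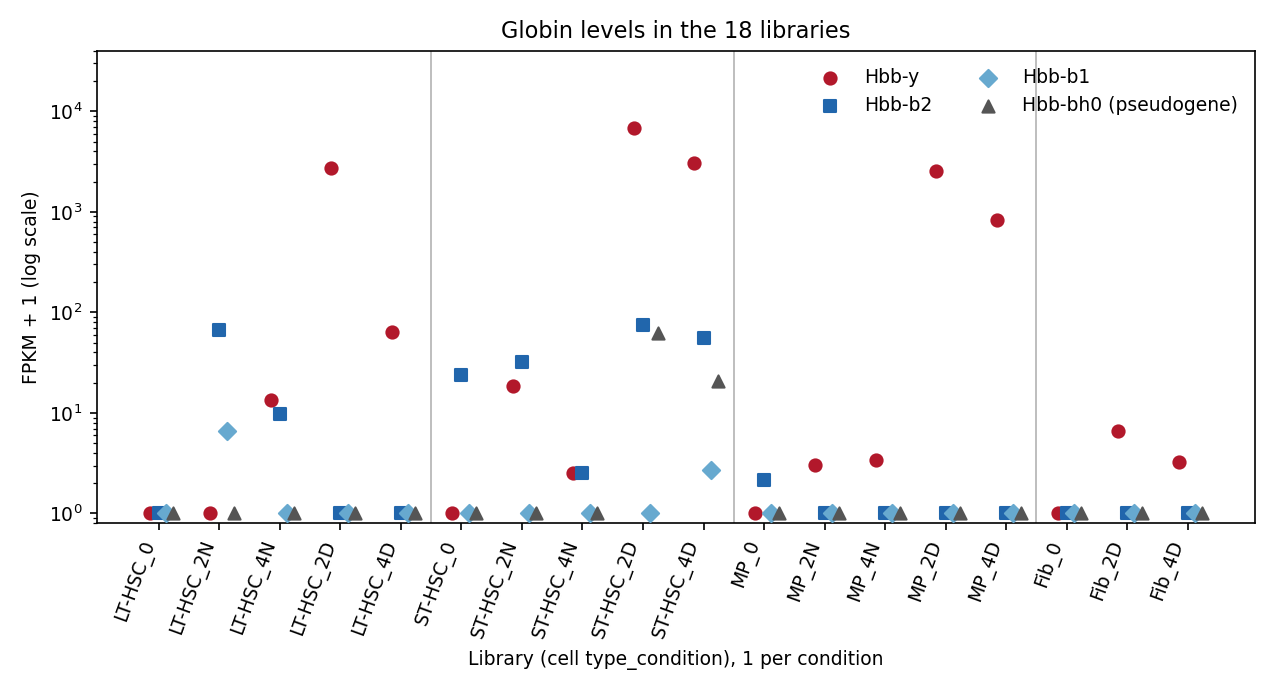
FPKM + 1 on a log axis of Hbb-y, Hbb-b2, Hbb-b1 and the pseudogene Hbb-bh0 in each of the 18 libraries (1 point per gene and library, no replicates). Hbb-y reaches 2556 to 6887 FPKM in the 2D blood libraries, and the adult Hbb-b2 stays at or below 73.2 FPKM.

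Within matched pairs of cell type and day, Hbb-y in D over N was 391-fold in ST-HSC at day 2, 1993-fold in ST-HSC at day 4, 1271-fold in MP at day 2 and 347-fold in MP at day 4. The ratio in LT-HSC at day 4 was 5.06-fold, and at day 2 no ratio can be given because 2N is listed at 0. Fitted on log2(FPKM + 1) with limma over the 6 pairs, the difference was 8.35 ± 1.0 (SE; adjusted p = 0.00202; D higher in 6 of 6 pairs). In this comparison 8.97% of the 12254 genes tested passed in either direction and 4.53% passed as higher. An exact two-sided sign-flip test on the 6 pairs gave p = 0.0312, the smallest that 6 pairs can give, and 0.0625 after adjustment over the 2 globins tested. Leaving out each pair in turn gave differences of 7.74 to 9.57 with adjusted p between 1.45e-04 and 0.0113 (limma). Of the other members, Hbb-b2 alone had the mean of at least 1 FPKM needed to be tested.

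**Figure D2:**
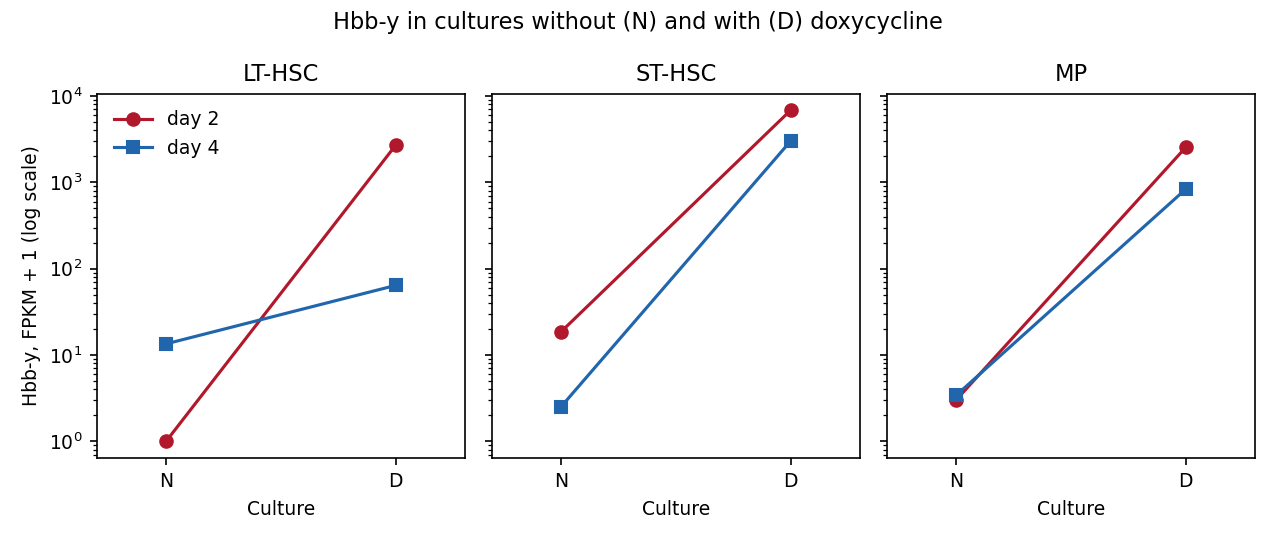
Hbb-y as FPKM + 1 on a log axis in cultures without (N) and with (D) doxycycline, 1 panel per blood cell type, each line joining 1 pair of libraries of the same day. All 6 lines rise; the line of LT-HSC at day 4 (12.5 to 63.1 FPKM) is the flattest.

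Hbb-y was lower at day 4 than at day 2 in the D libraries of all 3 cell types. The day 2 level over day 4 was 42.9-fold in LT-HSC, 2.27-fold in ST-HSC and 3.06-fold in MP. As log2(FPKM + 1), the mean level over the cell types was 11.82 ± 0.80 (SD, n = 3) in 2D, 9.09 ± 2.83 in 4D, 2.28 ± 1.29 in 4N and 1.94 ± 2.13 in 2N, with every uncultured library at 0. In this order 4D and 4N were further apart than either SD, while 2D and 4D, 4N and 2N, and 2N and uncultured were no further apart than the larger SD of each pair. The D minus N difference was 9.89 ± 1.44 (SD, n = 3 pairs) at day 2 and 6.81 ± 4.11 at day 4. The test of that change gave -3.08 ± 1.83 (SE; limma, adjusted p = 0.989) and so did not pass. No gene of 12254 passed that test (0%), with 511 at an unadjusted p under 0.05. The low day 4 difference rested largely on the LT-HSC pair, at 2.25 against 10.23 in ST-HSC and 7.94 in MP.

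No difference between MP and the stem cells in Hbb-y passed a test, and LT-HSC against ST-HSC was not tested. The D minus N difference averaged over days was 6.83 in LT-HSC, 9.38 in ST-HSC and 8.83 in MP, and MP against the stem cells differed by 0.73 ± 2.18 (SE; limma, adjusted p = 0.963). That interaction was passed by 0% of 12254 genes, with 1018 at an unadjusted p under 0.05. Its sign depended on single pairs: it was -0.17 without MP at day 2 and -1.22 without LT-HSC at day 4. Over all 15 blood libraries, with condition as block, Hbb-y in MP differed from the stem cells by -0.22 ± 0.83 (SE; limma, adjusted p = 0.932), where 0.297% of genes passed, 0.0402% as higher and 0.257% as lower. These intervals are wide, so they do not show that the cell types responded alike.

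Culture alone left Hbb-y low. It was above 0 in 5 of 6 N libraries and in none of the 3 uncultured ones, with an N median of 2.21 FPKM. N against uncultured differed by 2.11 ± 0.88 (SE; limma, adjusted p = 0.154), in a comparison that 8.89% of genes passed. D against uncultured differed by 10.46 ± 1.07 (SE; limma, adjusted p = 7.34e-04), where 15.3% of genes passed and 9.16% passed as higher. Because every uncultured library is listed at 0, this size depends on the 1 added before the log; it was 13.78 with 0.1 added and 7.17 with 10 added. The 2 comparisons share the uncultured libraries, and each culture group is also in the D against N comparison. In fibroblasts Hbb-y was listed at 0 uncultured and stood at 5.63 FPKM in 2D and 2.25 FPKM in 4D, within the range of the blood N libraries. With 1 fibroblast library per condition and another library method, no test was made.

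The labels and cell identity were checked beside these values. Sox2, one of the induced factors, was 15.6 to 61.3 FPKM in the 6 D blood libraries, 0 to 1.5 FPKM in the 6 N libraries and 124 and 74.2 FPKM in fibroblast 2D and 4D. Pou5f1, the Oct4 gene, and Klf4 separated the blood groups less. Pou5f1 was listed at 0 in N and in 3 of 6 D libraries and was at most 2.34 FPKM in blood. Klf4 was 0 to 22.6 FPKM in N and 0.704 to 11.2 FPKM in D. The level of c-Myc is not described here. Col1a1, a collagen of fibroblasts, was 258 to 5436 FPKM in fibroblasts and at most 1.10 FPKM in blood libraries. Col1a2, another collagen, was 228 to 3583 FPKM in fibroblasts, 32.3 FPKM in MP 2D and at most 5.99 FPKM in the other blood libraries. Mpo, the granule enzyme of myeloid progenitors, was 13224 FPKM in uncultured MP but also 7525 FPKM in uncultured LT-HSC, against 765 FPKM in uncultured ST-HSC. Some D libraries were low in Ptprc, the pan-leukocyte antigen CD45, and in Cd34, a surface marker of blood progenitors. N libraries had Ptprc at 20.3 to 30.9 FPKM and Cd34 at 41.4 to 596 FPKM, and uncultured LT-HSC had Cd34 at 16.1 FPKM. Both genes were listed at 0 in LT-HSC 4D and MP 4D. Other blood-cell genes varied there: Kit was 4.43 and 4.29 FPKM and Tal1 20.6 and 6.46 FPKM. Lyl1 and Cbfa2t3 were listed at 0 in both libraries. Ptprc and Cd34 stood at 55.9 and 220 FPKM in ST-HSC 2D and at 22.0 and 155 FPKM in ST-HSC 4D. Those ST-HSC libraries had the most Hbb-y of their day. In LT-HSC 2D they were 2.47 and 9.19 FPKM and in MP 2D 6.70 and 14.3 FPKM, with Hbb-y at 2707 and 2556 FPKM. The part of blood-cell identity in the Hbb-y levels was not tested.

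Hbb-b2 (ENSMUSG00000073940), an adult beta globin, did not follow Hbb-y. In LT-HSC it was listed at 0 uncultured, in 2D and in 4D, and stood at 65.7 FPKM in 2N and 8.86 FPKM in 4N. In ST-HSC it was 22.8 FPKM uncultured, 31.2 FPKM in 2N, 1.52 FPKM in 4N, 73.2 FPKM in 2D and 54.7 FPKM in 4D. In MP it was 1.16 FPKM uncultured and listed at 0 in all 4 cultured libraries, and it was listed at 0 in all 3 fibroblast libraries. The D and N ranges overlapped, and D was higher in 2 pairs, lower in 2 and equal at 0 in 2. The D against N difference was -0.61 ± 1.12 (SE; limma, adjusted p = 0.794; exact sign-flip p = 0.75 over the 6 pairs), and without the LT-HSC day 2 pair it was 0.47. Neither N nor D differed detectably from uncultured, at 0.72 ± 1.20 (SE; limma, adjusted p = 0.728) and 0.11 ± 0.59 (SE; limma, adjusted p = 0.914). The first of these was -1.26 without the LT-HSC libraries, and the second was -0.73 with 0.1 added before the log. MP against the stem cells differed by -3.01 ± 1.13 (SE; limma, adjusted p = 0.269). In ST-HSC 2D and 4D, where both beta globins were present, Hbb-b2 per unit of length was 1.06% and 1.81% of Hbb-y.

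The remaining members were at or near 0. Hbb-b1 (ENSMUSG00000052305), the other adult beta globin, was above 0 in LT-HSC 2N at 5.58 FPKM and in ST-HSC 4D at 1.71 FPKM, and listed at 0 in the other 16 libraries. Hbb-bh1 (ENSMUSG00000052217), the other embryonic beta-like globin, was listed at 0 in all 18 libraries. So were all 3 alpha-like members, Hba-x (ENSMUSG00000055609), Hba-a1 (ENSMUSG00000069919) and Hba-a2 (ENSMUSG00000069917). The alpha-like chains that pair with Hbb-y in embryonic haemoglobin were thus listed at 0 in the D libraries too. Of all 36655 gene symbols, 17955 were above 0 in any library. A gene listed at 0 throughout is therefore common here, and these zeros are not read as particular to the globins. For Hba-a1 and Hba-a2 a 0 says little, since the handling of reads from their shared sequence is not given. Hbb-b2 also shares windows with its pair and reached 73.2 FPKM. Gapdh and Rpl3, which every cell uses and which have many near copies, were also low here, at 0 to 22.6 FPKM and 0 to 5.82 FPKM. Whether shared sequence lowered any of these values was not tested. Hba-x and Hbb-bh1 share no window of 50 bases with another gene in the annotation used.

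Hbb-bh0, an untranslated beta-like pseudogene in the same cluster, was above 0 in ST-HSC 2D at 62.0 FPKM and in ST-HSC 4D at 19.8 FPKM. These are the libraries with the highest Hbb-y at each day, and the values were 0.900% and 0.654% of Hbb-y. It was listed at 0 in LT-HSC 2D and MP 2D, where Hbb-y was 2707 and 2556 FPKM. Its D against N difference, 1.73 on the log2 scale, did not pass. The other beta-like entries Hbb-bh2 and Hbb-bh3 were listed at 0 throughout.

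The sequences before the start sites of Hbb-y and Hbb-b2 are shown because these genes lie in 1 cluster and took different levels in the same libraries. Each is 250 bases up to the start site, from RefSeq (GRCm38.p6), and 6 of the 7 members had an entry. Capitals mark 4 words on either strand: CACCC, which reads GGGTG on the other strand, then CCAAT, which reads ATTGG there, then GATA, which reads TATC, and lastly ATAAA, which reads TTTAT. Hbb-y lies at chr7:103853208-103853457 and Hbb-b2 at chr7:103813924-103814173, both on the minus strand.
Hbb-y: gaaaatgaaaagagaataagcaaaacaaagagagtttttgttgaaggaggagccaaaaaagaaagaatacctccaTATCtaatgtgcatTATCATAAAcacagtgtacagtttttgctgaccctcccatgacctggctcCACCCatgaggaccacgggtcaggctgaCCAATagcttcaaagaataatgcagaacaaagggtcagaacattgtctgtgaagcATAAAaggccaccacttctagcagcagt
Hbb-b2: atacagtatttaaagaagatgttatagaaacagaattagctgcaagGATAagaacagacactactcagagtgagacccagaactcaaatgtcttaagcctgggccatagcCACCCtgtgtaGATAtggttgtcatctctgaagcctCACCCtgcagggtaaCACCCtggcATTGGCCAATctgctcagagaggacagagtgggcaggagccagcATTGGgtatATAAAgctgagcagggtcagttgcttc
CACCC boxes are bound by Klf1 and its relatives, CCAAT by NF-Y and GATA by Gata factors. The Hbb-y window held 1 CACCC, 1 CCAAT, 2 GATA and 2 ATAAA, the CACCC starting 111 bases and the CCAAT 83 bases before the start site. The Hbb-b2 window held 3 CACCC, 3 CCAAT, 2 GATA and 1 ATAAA, counting both strands, with 2 of the CCAAT words joined in the inverted pair ATTGGCCAAT. These short words are common. CACCC occurred in 52.0% of 32851 promoter windows of the same length, CCAAT in 33.8%, GATA in 53.6% and ATAAA in 37.3%. The words for Sox factors (ACAAT, in 27.7% of windows), for Myc (CACGTG, 6.02%) and for Oct factors (ATGCAAAT, 1.60%) were searched too. Hbb-y had 1 ACAAT and no CACGTG or ATGCAAAT, and Hbb-b2 had none of these words. A match is not a measured binding site, and no binding was measured here.

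Genes whose levels followed each globin most closely were ranked by Pearson correlation of log2(FPKM + 1) over the 15 blood libraries, among 10695 genes. The libraries share cell types and cultures, so these values are descriptions. For Hbb-y the closest was Frem2, an extracellular matrix protein of basement membranes (r = 0.957), at 1.64 to 28.9 FPKM in D libraries and at most 0.267 FPKM in the others. Plekhh2, an actin-associated protein, followed (r = 0.949), and then Sh3pxd2b, a scaffold of podosomes (r = 0.937). Sh3pxd2b was 22.0 to 56.9 FPKM in D and at most 4.83 FPKM elsewhere. None of these 3 is on the list of erythroid markers. With 34 genes on that list and 10695 compared, this says little. For Hbb-b2 the closest were the zinc finger gene Hivep3 (r = 0.881), the sugar phosphate enzyme gene Pgm2l1 (r = 0.877) and D030054H15Rik (r = 0.855). Hivep3 was 0 to 14.2 FPKM in D and 0 to 27.1 FPKM elsewhere, with no separation by doxycycline.

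Regulators of globin genes that passed the test were mostly lower in D. Of 33 listed regulators 28 were tested in D against N; 1 was higher and 5 were lower, and the median log2 difference was -0.29, against 0.02 over all genes tested. Over all genes 4.53% were higher and 4.44% lower. Myb, which maintains blood progenitors and is linked to the silencing of fetal globin in people, had the smallest p: it fell by 3.31 ± 0.32 on the log2 scale (SE; limma, adjusted p = 4.22e-04; lower in 6 of 6 pairs). It was 26.4 to 89.2 FPKM in N and 0.286 to 13.7 FPKM in D. Gfi1b, a transcriptional repressor that acts in the red cell and platelet lineages, fell by 3.85 (limma, adjusted p = 0.0217). Nfe2, which binds the locus control region, fell by 4.31 (limma, adjusted p = 0.0289). Lyl1, a partner in Gata and Lmo2 complexes, fell by 3.23 (adjusted p = 0.0209), and Cbfa2t3, a corepressor in such complexes, fell by 2.60 (adjusted p = 0.0365). Klf3, a repressor related to Klf1, rose by 2.40 ± 0.51 (SE; limma, adjusted p = 0.0189). The Myb call held without each pair, with adjusted p between 0.00122 and 0.00341 (limma).

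The other regulator calls ended when any of 3 or 4 pairs was left out, while the differences kept their direction, all by limma. Over the 6 fits with 1 pair left out, Klf3 was 2.07 to 2.72, Nfe2 -4.99 to -3.29, Gfi1b -4.58 to -3.21, Lyl1 -3.87 to -2.81 and Cbfa2t3 -3.14 to -2.12. Without the LT-HSC day 2 pair, the adjusted p was 0.057 for Klf3, 0.0856 for Nfe2, 0.067 for Gfi1b, 0.0545 for Lyl1 and 0.0941 for Cbfa2t3. Without the MP day 2 pair it was 0.0634 for Klf3, 0.0897 for Nfe2, 0.0768 for Lyl1 and 0.0814 for Cbfa2t3. Without the MP day 4 pair it was 0.0541, 0.0815, 0.0604 and 0.1 for the same 4 genes. The Gfi1b call also ended without the ST-HSC day 2 pair (0.0534) and without the LT-HSC day 4 pair (0.0571). Without that last pair Lyl1 was at 0.0615 and Cbfa2t3 at 0.0931. With 0.1 added before the log, Nfe2 (0.08), Lyl1 (0.0594) and Cbfa2t3 (0.0896) did not pass, and with 10 added Gfi1b (0.0651) did not. Cbfa2t3 lost its call under 3 of 9 processing alternatives in all. In ST-HSC, the cell type with the most Hbb-y, Nfe2 stood at 155 and 185 FPKM in 2D and 4D, against 0 to 13.8 FPKM in the other D libraries.

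Bcl11a, the main silencer of embryonic globins in adult red cells, was present in every blood library. It was 32.6 to 57.9 FPKM uncultured. In LT-HSC it was 44.2 FPKM in 2N and 48.9 FPKM in 2D, then 71.1 FPKM in 4N and 39.1 FPKM in 4D. In ST-HSC it was 28.4 FPKM in 2N and 94.7 FPKM in 2D, then 48.1 FPKM in 4N and 59.5 FPKM in 4D. In MP it was 21.7 FPKM in 2N and 29.4 FPKM in 2D, then 6.61 FPKM in 4N and 41.1 FPKM in 4D. The D library was higher in 5 of 6 pairs, and the highest Bcl11a value, in ST-HSC 2D, was in the library with the highest Hbb-y. The difference of 0.70 ± 0.40 (SE; limma, adjusted p = 0.33) did not pass. Sox6, a partner of Bcl11a in silencing, differed by 1.34 ± 0.48 (SE; limma, adjusted p = 0.124) at 0 to 5.06 FPKM in the cultured libraries.

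**Figure D3:**
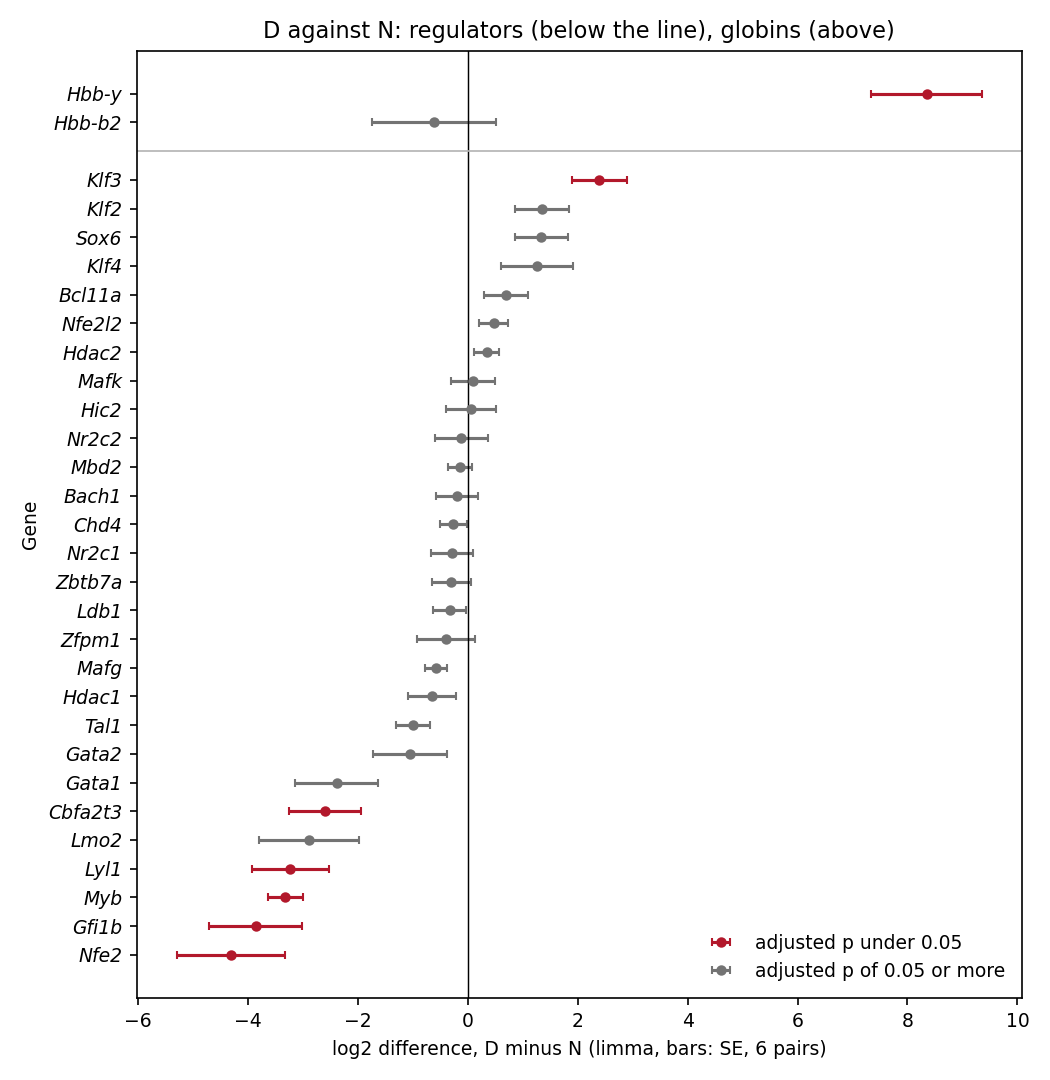
Log2 difference of D minus N with SE (limma, 6 pairs) for the 2 tested globins and the 28 tested regulators of globin genes; red marks an adjusted p under 0.05. Hbb-y at 8.35 lies beyond every regulator shown, from Nfe2 at -4.31 to Klf3 at 2.40.

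Against uncultured cells, D libraries had 7 of 29 tested regulators lower and 0 higher (background 6.17% lower, 9.16% higher). These were Myb at -3.30 (limma, adjusted p = 0.0113), Klf1 at -3.28 (0.0374), Klf2 at -3.16 (0.0106), Klf4 at -3.73 (0.0218), Mafk at -2.36 (0.00742), Gata2 at -2.01 (0.0283) and Zfpm1 at -2.44 (0.0431). Klf4 is also 1 of the induced factors. Each of these calls ended with some cell type left out: without LT-HSC all but Gata2 (adjusted p 0.0625 to 0.162), without ST-HSC all but Myb (0.0537 to 0.123), and without MP Gata2, Klf1 and Zfpm1 (0.147 to 0.22). With no block, Gata2 (0.287), Klf1 (0.0522) and Zfpm1 (0.0533) did not pass. Over the 9 processing alternatives Klf1 and Zfpm1 each lost the call in 5 (limma, adjusted p up to 0.094 and 0.0801). Gata2 lost it in 2 and Klf2 in 1 (limma, adjusted p = 0.0507). N libraries had 2 regulators higher and 5 lower of 29 against uncultured (background 5.8% higher, 3.08% lower). Nfe2 at 1.36 (limma, adjusted p = 0.0166) and Cbfa2t3 at 1.41 (0.0363) were higher. Klf2 at -4.51 (0.00291), Klf3 at -3.11 (0.0216), Klf4 at -5.00 (0.0333), Mafk at -2.45 (0.0269) and Nfe2l2 at -1.07 (0.0329) were lower. Without ST-HSC all 7 calls ended (0.0718 to 0.268), without LT-HSC all but Klf2 (0.0877 to 0.195), and without MP Klf3 (0.0841) and Cbfa2t3 (0.101). With no block, Nfe2 (0.0543), Nfe2l2 (0.0932) and Cbfa2t3 (0.0565) did not pass. Over the 9 alternatives Cbfa2t3 lost the call in 3, and Nfe2, Nfe2l2 and Klf4 in 2 each (Klf4: limma, adjusted p up to 0.0653). Klf3 and Mafk lost it in 1 each (limma, adjusted p = 0.0643 and 0.0515).

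The defining red cell genes and the erythroid list took different levels where Hbb-y was high. Gata1 and Klf1 were counted with the regulators and not in that list. In the 6 D blood libraries Gata1 and Slc4a1, the gene of the red cell anion exchanger, were listed at 0. Klf1 was 0 to 1.28 FPKM, the erythropoietin receptor gene Epor was at 0 in all but LT-HSC 2D (3.53 FPKM), and the haem synthesis gene Alas2 was at 0 in all but LT-HSC 4D (14.0 FPKM). The blood group gene Kel was above 0 in 2 D libraries, reaching 7.34 FPKM in MP 2D. Gata1 was 0 to 40.6 FPKM in N, and its difference of -2.38 ± 0.75 (SE; limma, adjusted p = 0.0803) did not pass. The libraries with the highest levels of early erythroid genes were elsewhere. Uncultured MP had Klf1 at 141 FPKM, Gata1 at 91.6 FPKM, Epor at 46.2 FPKM, carbonic anhydrase Car1 at 366 FPKM and the Rhesus gene Rhd at 174 FPKM. Its Hbb-y was listed at 0 and its only globin above 0 was Hbb-b2 at 1.16 FPKM.

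The whole list of erythroid markers had 34 genes in the table, and 16 were tested in D against N. Of these, 1 was higher and 1 lower, with a median of -0.48, against background shares of 4.53% and 4.44%. Prdx2, an abundant red cell peroxiredoxin, was 194 to 341 FPKM in N and 346 to 710 FPKM in D, and rose by 0.94 (limma, adjusted p = 0.0385). The transferrin receptor gene Tfrc had a median of 55.6 FPKM in N and 104 FPKM in D, and its difference of 0.97 (limma, adjusted p = 0.262) did not pass. Icam4, a red cell adhesion antigen, fell by 2.83 (limma, adjusted p = 0.0284). Each call ended when any of 5 pairs was left out, and with no filter on low values (0.0641 for Prdx2, 0.051 for Icam4). Prdx2 lost its call under 2 of 9 processing alternatives in all (limma, adjusted p up to 0.102). The adjusted p for Prdx2 was 0.0753, 0.0544 and 0.107 without the LT-HSC, ST-HSC and MP pairs of day 2, and 0.078 and 0.112 without the ST-HSC and MP pairs of day 4. For Icam4 it was 0.0737, 0.0665 and 0.0792 without the day 2 pairs in that order, and 0.0828 and 0.0755 without the LT-HSC and ST-HSC pairs of day 4. The summed level of the list was 1002 to 3222 FPKM uncultured, 468 to 2323 FPKM in N and 741 to 1331 FPKM in D. Within pairs the sum was higher in D in ST-HSC (1331 against 968 FPKM at day 2, 1186 against 588 FPKM at day 4) and in MP (1025 against 482 FPKM, 824 against 468 FPKM), and lower in LT-HSC (954 against 2180 FPKM, 741 against 2323 FPKM). Of the 34 genes, 17 to 21 were at 0 in the D libraries, 14 to 21 in the N libraries and 3 to 11 in the uncultured ones. The share of all genes at 0 in each library was not counted, so these counts are not read as particular to the list. The part of this list in the Hbb-y result was not tested.

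**Figure D4:**
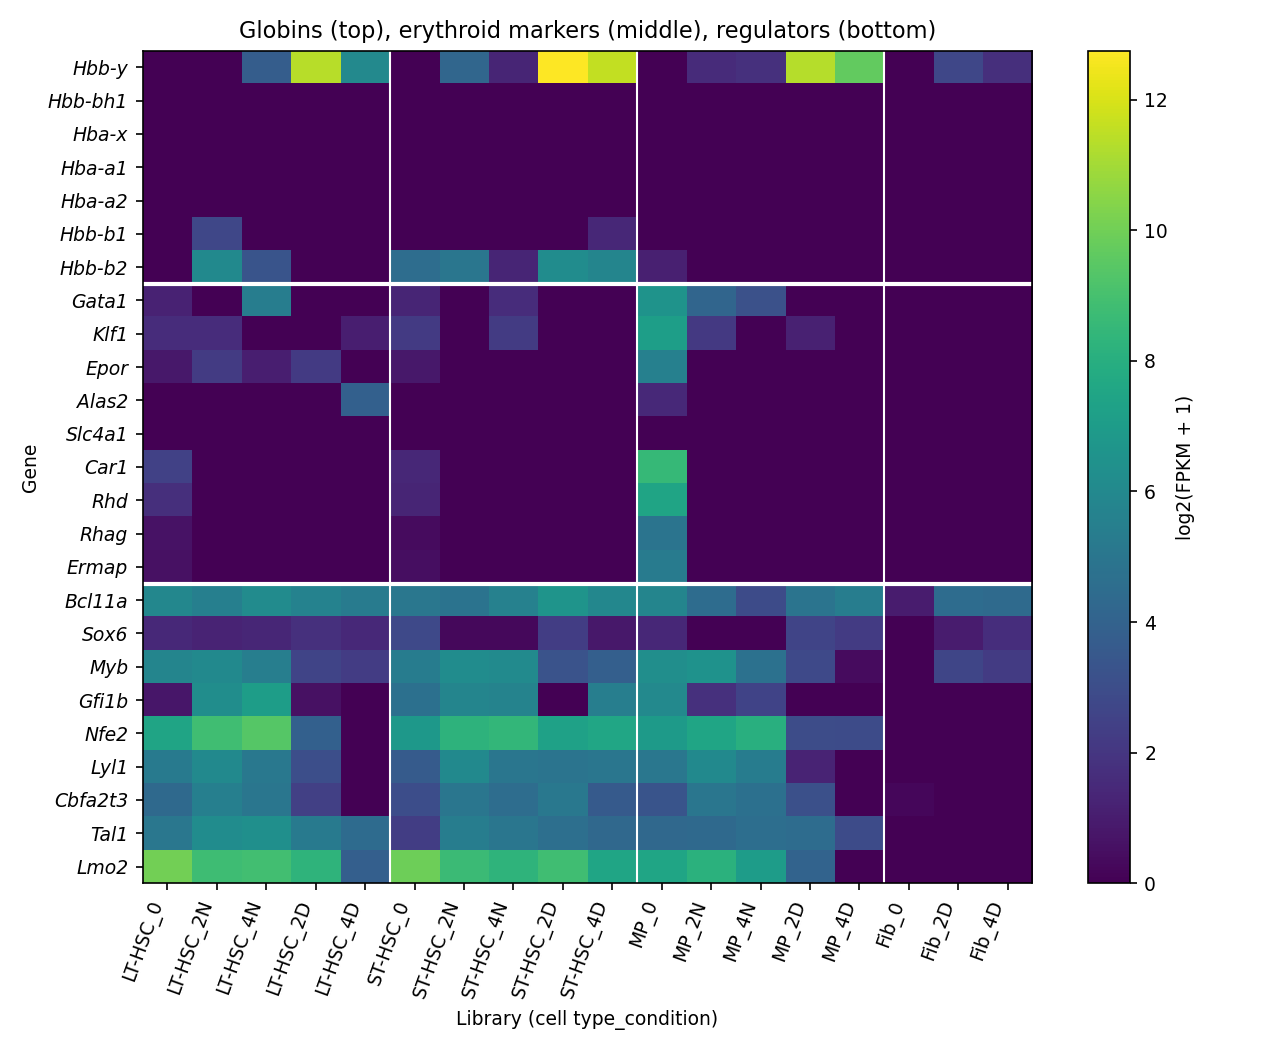
Log2(FPKM + 1) of the 7 globins, 9 erythroid genes and 9 globin regulators in the 18 libraries, 1 column per library and grouped by cell type. Of the 9 erythroid genes shown, Gata1, Klf1, Epor, Car1, Rhd, Rhag and Ermap are brightest in uncultured MP, where Hbb-y is at 0. Alas2 is highest in LT-HSC 4D (14.0 FPKM) and Slc4a1 is at 0 throughout. Gata1 and Klf1 are on the list of regulators, and the others were chosen from the 34 erythroid markers. Prdx2 and Icam4, the erythroid markers that passed in D against N, are not shown.

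Haem synthesis and iron genes supply the other component of haemoglobin. Of 24 tested in D against N, 1 was higher and 4 lower (background 4.53% and 4.44%), with a median of -0.09. Abcb6, a porphyrin transporter, was 27.7 to 64.2 FPKM in N and 90.4 to 145 FPKM in D. It rose by 1.58 ± 0.19 on the log2 scale (SE; limma, adjusted p = 0.00134; higher in 6 of 6 pairs). Slc48a1, which moves haem out of lysosomes, fell by 1.74 ± 0.31 (SE; limma, adjusted p = 0.00912). Both calls held without each pair. Fth1, the ferritin heavy chain, fell by 0.90 (limma, adjusted p = 0.0187), and Steap3, a ferrireductase, fell by 2.21 (limma, adjusted p = 0.02). Without the MP day 2 pair these genes were at adjusted p of 0.0644 and 0.0569, and without the LT-HSC day 4 pair at 0.0562 and 0.055. Fth1 also lost its call without the LT-HSC day 2 pair (0.0605) and Steap3 without the MP day 4 pair (0.0577). Under 1 of 9 processing alternatives Fth1 did not pass either (limma, adjusted p = 0.0889).

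Of 8 tested neighbours of the alpha cluster and 3 of the beta cluster, 0 passed in D against N in either direction. With 8.97% of all genes passing, so few genes say little. They had median differences of -0.04 and -0.35. At an unadjusted p under 0.05 were Fam173a at -0.87 and Stk10 at -1.57, both by the alpha cluster. Rrm1, a ribonucleotide reductase subunit gene near the beta cluster, was 79.2 to 158 FPKM in N and 75.3 to 139 FPKM in D. Stim1, a calcium sensor gene there, was 17.5 to 39.6 FPKM in N and 8.0 to 42.7 FPKM in D. The olfactory receptor genes that flank the beta cluster were listed at 0 in every library of every group, except Olfr632 at 2.84 FPKM in 1 N library.

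Markers of other blood-derived cells were also followed. In D against N, 0 of 8 tested endothelial markers were higher and 1 was lower, 0 of 4 macrophage markers were higher and 1 was lower, and 0 of 9 megakaryocyte markers were higher and 2 were lower. Over all genes 4.53% were higher and 4.44% lower, so counts of 0 in lists of this size are near the background. Plek, a platelet protein kinase C substrate, fell by 4.17 (limma, adjusted p = 6.61e-04), and Itga2b, the platelet integrin CD41, fell by 4.40 (limma, adjusted p = 0.008), both also without each pair. Icam2 fell by 3.15 (adjusted p = 0.048) and Csf1r, the macrophage growth factor receptor, by 3.09 (adjusted p = 0.0306). Icam2 lost its call without 5 of the pairs, with adjusted p up to 0.146 without MP at day 4, and under 8 of 9 processing alternatives (up to 0.0969). Csf1r lost it without MP at day 2 (0.0952), ST-HSC at day 4 (0.0855) or MP at day 4 (0.0851). Under 2 of 9 processing alternatives Csf1r did not pass either (limma, adjusted p up to 0.0961). Summed over its list, the megakaryocyte level was 43.0 to 639 FPKM in N and 0.455 to 14.1 FPKM in D. The macrophage sum was 1.65 to 239 FPKM in N and at most 16.6 FPKM in D, and the endothelial sum was 158 to 634 FPKM in N and 24.7 to 837 FPKM in D. Their part in the Hbb-y result was not tested.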

How the data were processed

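The deposited table holds FPKM values, made by the authors with TopHat and Cufflinks on mm9 per the submitters' processing notes, with no version or gene annotation named in the sources used here. The reference genome is another build, so no coordinates were taken from the table. The 158 symbols on several of the 36818 entries were summed. Fits used limma 3.58.1 in R 4.3.3 on log2(FPKM + 1), keeping genes whose FPKM averaged 1 or more, with trend and robust options and Benjamini-Hochberg adjustment at 0.05, two-sided. D against N had the pair of cell type and day as block, D or N against uncultured had cell type, and MP against stem cells had condition. The pairs come from the design, since a D and an N library of the same cell type and day share both. Log2 differences depend on the added 1 near 0. Alternatives were the added value, the filter, the scaling, the block, the variance model, the entry kept per symbol and each pair or block left out. The members and lists were chosen with earlier results of these data known. Named genes were all 7 globins, every called regulator, at most 4 called genes per other list by smallest p in D against N, and the 3 genes most like each globin of at least 10 FPKM; genes named for their level, cell identity or place were chosen after their values were seen. One erythroid marker is not reported here by name. Python 3.11.15 (numpy 2.4.6, pandas 2.3.3, matplotlib 3.10.9) handled sequences and plots.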

Additional observations from a re-analysis of the deposited data

Results flagged for a closer look

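Hbb-b2 moved in opposite directions in the stem cell types. Its D minus N log2 difference was -6.06 and -3.30 in LT-HSC at days 2 and 4, and 1.21 and 4.47 in ST-HSC, so both pairs of LT-HSC went down and both pairs of ST-HSC went up. The mean in LT-HSC minus that in ST-HSC was -7.52 on the log2 scale. The difference between the cell types was not tested. Both LT-HSC D libraries are listed at 0, so the size depends on the 1 added before the log, and Hbb-b2 shares much of its sequence with Hbb-b1.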

How the results depend on the processing

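The rise of Hbb-y in D against N passed under all 9 alternatives of processing (6.60 to 9.19, limma adjusted p from 3.74e-04 to 0.00801); without the replicate block of cell type and day it was 8.35 (adjusted p = 3.74e-04). The block changed no globin call. Genes past the threshold in D against N numbered 1099, and 529 to 1042 with 1 pair left out. For N against uncultured, the 1072 genes became 636 with no filter, 632 with no replicate block, 420 without the trend and robust options, and 52 (no ST-HSC) to 1194 with 1 cell type left out. For D against uncultured, 1922 became 361 (no LT-HSC) to 1207. For MP against stem cells, 37 became 5 with 10 added before the log, 13 with no filter, 1 with no replicate block, 13 without the trend and robust options, and 0 to 39 with 1 condition left out. The 0 genes of each interaction became 0 to 1 with 1 pair left out. Signs turned, with no value past the threshold. With 1 pair or cell type left out, Hbb-b2 ranged from -1.63 to 0.47 in D against N, from -1.26 to 1.79 in N against uncultured, from -0.21 (also -0.03) to 3.85 in the day change and from -0.79 to 2.72 in the MP interaction, and Hbb-y from -1.22 (also -0.17) to 1.83 in the last; Hbb-b2 in D against uncultured was -0.73 with 0.1 added; the cause was not tested. Unknown depth, 25 cells and 1 library per condition limit what low values show.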

Other observations

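Globins outside the haemoglobin clusters of red cells, and the theta-like genes of the alpha cluster, were scarce. Hbq1b, a theta-like globin, was 4.86 FPKM in LT-HSC 4N and 2.45 FPKM in ST-HSC 4D and listed at 0 elsewhere, and Hbq1a was listed at 0 throughout. Myoglobin (Mb, 2.20 FPKM) and cytoglobin (Cygb, 3.19 FPKM) were each above 0 in 1 library, the uncultured fibroblasts. Neuroglobin (Ngb) was above 0 in 2 D libraries, at no more than 1.91 FPKM.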
